A study of Mus musculus with 8 samples.

Results

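The genes described here are a panel of 9 that glucocorticoid hormones induce or act through, namely Nr3c1, Fkbp5, Sgk1, Tsc22d3, Zbtb16, Klf9, Cdkn1a, Mt1 and Mt2. A gene was followed through the probe set that the array's annotation gives that gene symbol and no other, and 8 of the 9 genes had such a probe set, of 19938 genes that did on the array. Each of the 8 had 1 probe set of this kind, and all 8 were among the 15791 named probe sets bright enough to be tested. Cdkn1a, the cell cycle inhibitor p21, was left without a value because its probe set is annotated with 2 symbols.

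Levels were measured on Affymetrix whole-transcript arrays in thalamic tissue of both sides of the brain from adult male C57BL/6 mice, 6 weeks old when the study began and 2 per group. Acupoint mice received MPTP and, over the course of the injections, were held and needled by hand at 2 leg and foot sites, GB34 (depth 3 mm) and LR3 (depth 1 mm), with 48 hr between the 14 sessions. Non-acupoint mice received MPTP and were needled at the hips on that schedule. MPTP mice received the neurotoxin alone, at 20 mg/kg daily for 4 weeks as in both needled groups, and control mice received daily saline over the same 4 weeks. A metabolite of MPTP is taken up by dopaminergic neurons, and the toxin serves as a model of parkinsonism. No group analysed here was needled without MPTP.

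Glucocorticoids are steroid hormones of the adrenal cortex that are released in stress and in a daily rhythm. They enter cells and bind the glucocorticoid receptor, which is held in the cytosol by heat shock protein chaperones, moves to the nucleus and binds DNA at glucocorticoid response elements. In the brain the receptor is found in neurons, glia and vessels, and several of its target genes, Fkbp5 and Sgk1 among them, are used as a readout of exposure to the hormone.

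Mouse 1 of the MPTP group and mouse 1 of the non-acupoint group gave arrays unlike the other 6. These 2 arrays correlated with each other at r = 0.982 over the tested probe sets and with the other 6 at 0.905 to 0.936, while the other 6 correlated among themselves at 0.981 to 0.995. Values without these 2 arrays are therefore given beside results that move with them. The 6 remaining arrays leave each of these groups 1 mouse, which was assumed to vary as mice of the remaining groups did. All 12 markers of thalamic neurons passed the brightness filter, with a mean log2 level of 9.11 to 10.12 on the 8 arrays. So did the 10 hypothalamic and 7 striatal markers with a probe set, and 7 of 9 of cortex and hippocampus. Passing the filter therefore cannot tell thalamus from other regions, and the tissue label was not tested. Nothing in the labels says that mice of a group were housed or treated separately, and p-values rest on how far apart the 2 mice within each group were. In tissue pieces such as these, fewer cells of a type and less RNA per cell cannot be told apart.

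Promoter sequence is shown for Sgk1, whose window held a full glucocorticoid response element, and for Mt1 and Mt2, a metallothionein pair with unlike values below; these were chosen after the matches were seen. RefSeq windows on GRCm38.p6, from 250 bases before to 50 bases after a transcription start, were on hand for 7 of the 9 genes, in 15 windows; Nr3c1 and Zbtb16 had none. The full glucocorticoid response element was searched for as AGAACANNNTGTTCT, which reads the same on both strands. It was found in 1 of the 15 windows, the fifth of the 6 Sgk1 starts, and in 3 of all 32851 mouse windows (0.00913%). The Sgk1 match, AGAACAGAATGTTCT, lies at -189 to -175 from the start, where -1 is the base before it. Its 6-base repeat unit AGAACA, searched for on both strands and contained in the full element, was found in 4 of the 15 windows and in 19.0% of all windows. The core of the metal response element, the site through which zinc and cadmium induce metallothionein genes, was searched for as TGCACNC or TGCGCNC on both strands. It was found in 25.7% of all windows and at least 3 times in 1.97% of them, and there were 3 matches in the Mt1 window and 4 in the Mt2 window. The stretches below are the 250 bases before each start, on the plus strand, with the element in capitals for Sgk1 (chr10:21993640-21993889) and the metal response cores in capitals for Mt1 (chr8:94178839-94179088) and Mt2 (chr8:94172368-94172617). Of the cores, 1 of the 3 in Mt1 and 3 of the 4 in Mt2 lie before the start of the window used. The annotated Mt1 gene begins at 94178883, within its printed stretch, and the Mt2 gene at 94172618, just after its own. The 2 counts therefore depend on the start chosen and do not compare the genes. No match in a window says only that these letters are absent from it.
Sgk1: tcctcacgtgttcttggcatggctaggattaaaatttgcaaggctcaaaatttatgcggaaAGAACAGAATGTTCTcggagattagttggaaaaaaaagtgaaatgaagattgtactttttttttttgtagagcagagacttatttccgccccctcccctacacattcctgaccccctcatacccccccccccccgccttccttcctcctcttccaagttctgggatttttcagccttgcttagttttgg
Mt1: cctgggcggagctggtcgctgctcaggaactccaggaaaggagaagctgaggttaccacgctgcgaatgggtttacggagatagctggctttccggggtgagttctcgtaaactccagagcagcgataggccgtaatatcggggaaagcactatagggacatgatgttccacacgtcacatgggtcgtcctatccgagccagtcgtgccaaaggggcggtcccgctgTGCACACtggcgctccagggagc
Mt2: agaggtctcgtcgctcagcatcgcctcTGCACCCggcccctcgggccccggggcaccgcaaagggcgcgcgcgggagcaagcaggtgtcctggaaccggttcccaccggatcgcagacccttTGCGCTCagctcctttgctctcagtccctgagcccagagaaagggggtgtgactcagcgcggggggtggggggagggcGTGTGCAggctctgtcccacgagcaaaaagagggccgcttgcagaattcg

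Nr3c1, which encodes the glucocorticoid receptor, was higher in every MPTP-injected mouse than in either control. Its log2 level was 9.14 and 9.21 in acupoint mice 1 and 2, 9.07 and 9.10 in non-acupoint mice, 9.03 and 8.82 in MPTP mice, and 8.54 and 8.63 in controls. All 6 injected mice lay above both controls, and the order of the group means was acupoint, non-acupoint, MPTP, control with no overlap between neighbours. The mean of the 3 injected groups was higher than control by 0.47 ± 0.11 on the log2 scale (SE; 95% interval 0.21 to 0.74), a 1.39-fold difference. It did not pass the threshold over all probe sets (adjusted p = 0.339, limma with Benjamini-Hochberg adjustment). With the 6 arrays, which leave the MPTP and non-acupoint groups 1 mouse each, the difference was 0.45 ± 0.07. Against control, MPTP alone was higher by 0.34 ± 0.13, a difference that was the smallest of the 3 injected groups.

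Fkbp5, which encodes a co-chaperone that lowers the receptor's affinity for hormone and is itself induced by the receptor, was highest in MPTP mice. Its log2 level was 8.55 and 8.12 in acupoint mice, 7.82 and 8.30 in non-acupoint mice, 8.56 and 8.73 in MPTP mice, and 7.82 and 7.71 in controls. Both MPTP mice lay above the other 6, though acupoint mouse 1 nearly equalled the lower of them, and non-acupoint mouse 1 nearly equalled the higher control. MPTP mice were higher than controls by 0.88 ± 0.22 (SE; 95% interval 0.35 to 1.41), a 1.84-fold difference that did not pass the threshold (limma adjusted p = 0.661). With the 6 arrays this difference was 0.97 ± 0.18 (limma adjusted p = 0.0996).

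The mean of the 3 injected groups exceeded control in Fkbp5 by 0.59 ± 0.18 (1.50-fold, limma adjusted p = 0.517), and by 0.69 ± 0.13 with the 6 arrays. Fkbp5 was lower in non-acupoint than in MPTP mice by 0.58 on the log2 scale (difference -0.58 ± 0.22, limma adjusted p = 1.00), and the difference was -0.34 without non-acupoint mouse 1. In acupoint mice it differed from MPTP mice by -0.30 ± 0.22 (95% interval -0.83 to 0.22), and by -0.0908 without acupoint mouse 2. The 2 needled groups overlapped.

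Markers of thalamic neurons were also higher in injected mice than in controls. The mean log2 level of the 12 markers was 10.12 and 10.10 in acupoint mice, 10.03 and 9.84 in non-acupoint mice, 9.90 and 9.81 in MPTP mice, and 9.11 and 9.23 in controls. All 12 were higher in the injected groups than in controls, with a median difference of 0.80, and of 0.73 with the 6 arrays. Their group means ran in the order of Nr3c1. Non-acupoint mice were higher than MPTP mice in only 8 of the 12 markers (median 0.08), and in 6 with the 6 arrays (median -0.03). Fkbp5 did not share that order, being highest in MPTP mice, where the mean of the markers was lowest among injected groups. The part of thalamic neurons in the Nr3c1 and Fkbp5 differences was not tested. Dopaminergic markers, by contrast, were lower in all 7 measured members in the injected groups (median -1.29, and -0.97 with the 6 arrays). Their mean log2 level was 8.49 in MPTP mouse 2, 7.03 to 7.64 in the other injected mice, and 8.95 and 8.79 in controls. For MPTP against control the median was -0.92, and -0.32 with MPTP mouse 2 alone.

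Sgk1, a kinase that acts on ion channels and transporters and is a direct target of the receptor, was highest in MPTP mice and lowest in non-acupoint mice. Its log2 level was 9.41 and 9.82 in acupoint mice, 9.16 and 9.25 in non-acupoint mice, 9.73 and 10.14 in MPTP mice, and 9.43 and 9.35 in controls. The group means ran MPTP, acupoint, control, non-acupoint, with overlap between neighbours except between control and non-acupoint mice. MPTP mice were higher than controls by 0.54 ± 0.20 (SE), 1.46-fold, and non-acupoint mice lower than MPTP mice by 1.66-fold (log2 difference -0.73 ± 0.20, 95% interval -1.21 to -0.25). Neither passed the threshold (limma adjusted p = 0.714 and 1.00). With the 6 arrays these differences were 0.75 ± 0.17 and -0.89 ± 0.19 (limma adjusted p = 0.134 and 0.210). Acupoint mice were higher than non-acupoint mice by 0.41 ± 0.20 (95% interval -0.07 to 0.89), without overlap.

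Markers of choroid plexus, which makes the cerebrospinal fluid, had the same order of group means as Sgk1. The mean log2 level of the 11 measured markers was 8.12 and 8.67 in acupoint mice, 5.60 and 5.68 in non-acupoint mice, 8.72 and 8.68 in MPTP mice, and 6.79 and 6.83 in controls. All 11 were lower in non-acupoint than in MPTP mice, with a median log2 difference of -2.66, and 3 of them passed the threshold, as 0.0443% of all probe sets did (limma); 6 passed with the 6 arrays, as 0.146% of all did. Markers of the meninges, the membranes around the brain, were also lower in non-acupoint than in MPTP mice in 9 of 9 (median -0.35, 1 past the threshold), and higher in acupoint than in non-acupoint mice in 9 of 9 (median 0.36). On the 6 arrays 7 of the 9 were lower in non-acupoint than in MPTP mice. The part of choroid plexus and meningeal tissue in the Sgk1 differences was not tested. Fkbp5 did not share this order, since its non-acupoint mean (8.06) lay above its control mean (7.76).

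**Figure D1:**
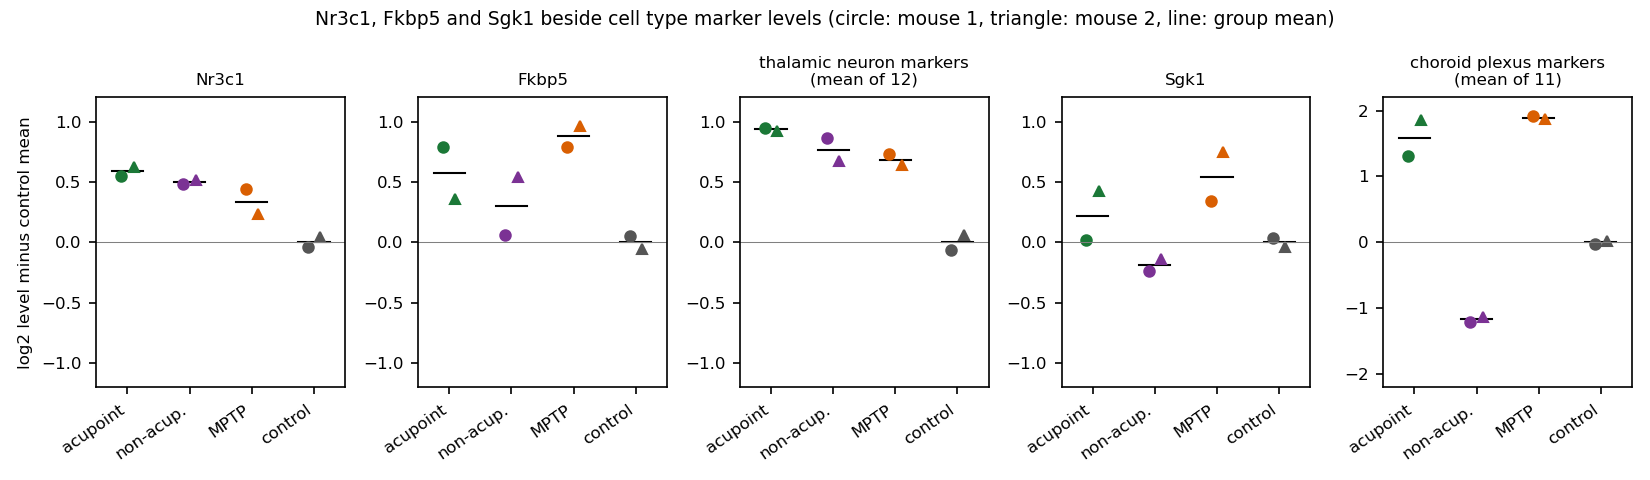
Log2 level minus the control mean for Nr3c1, Fkbp5 and Sgk1 and for the mean of 12 thalamic neuron and 11 choroid plexus markers, by group (circle mouse 1, triangle mouse 2, line group mean; the choroid plexus panel has a wider axis). Nr3c1 and the thalamic markers lie above control in all 6 injected mice, and Sgk1 and the choroid plexus markers are lowest in non-acupoint mice.

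Tsc22d3, Zbtb16 and Klf9 encode transcription regulators that the receptor induces in many tissues. Tsc22d3, whose product GILZ restrains inflammatory signalling, stood at 8.28 and 8.32 in acupoint mice, 7.79 and 8.37 in non-acupoint mice, 7.82 and 8.32 in MPTP mice, and 8.14 and 8.27 in controls. Its low values were those of the 2 arrays that stood apart, and the other 6 spanned 8.14 to 8.37. The MPTP difference from control was -0.13 ± 0.25 and, with the 6 arrays, 0.12 ± 0.10, in the other direction.

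Klf9, a zinc finger factor that thyroid hormone also induces, had the same low arrays. Its log2 level was 9.67 and 9.43 in acupoint mice, 8.63 and 9.41 in non-acupoint mice, 8.93 and 9.70 in MPTP mice, and 9.22 and 9.32 in controls. MPTP mouse 1 and non-acupoint mouse 1 lay below both controls and the 4 remaining injected mice above both, so injected mice and controls overlapped. The mean of the injected groups was higher than control by 0.02 ± 0.27 over all 8 arrays. With those 2 mice left out it was higher by 0.28 ± 0.09. Acupoint mice were higher than non-acupoint mice by 0.53 ± 0.33 without overlap, and by 0.14 ± 0.12 with the 6 arrays.

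Zbtb16, which encodes the zinc finger factor PLZF, had the largest pooled spread within groups after Mt2. It stood at 9.30 and 8.39 in acupoint mice, 8.28 and 8.90 in non-acupoint mice, 8.75 and 9.33 in MPTP mice, and 8.99 and 8.87 in controls. The 2 acupoint mice lay far apart, and neighbouring groups overlapped throughout the order of means. The difference between MPTP mice and controls had a 95% interval of -0.76 to 0.99, so differences of that size were not detectable with 2 mice per group. It was 0.11 ± 0.36 over 8 arrays and 0.40 ± 0.33 with the 6 arrays.

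Mt1 and Mt2 encode metallothioneins, small cysteine-rich proteins that bind zinc and copper, and are induced by metals as well as by glucocorticoids. Mt1 was flat, at 11.94 and 11.93 in acupoint mice, 11.88 and 12.02 in non-acupoint mice, 11.93 and 12.02 in MPTP mice, and 11.989 and 11.997 in controls. Every array lay between 11.88 and 12.02, the 2 arrays that stood apart being the lowest, and the 95% interval for MPTP against control was -0.32 to 0.28. A difference within that interval was not detectable.

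Mt2 was split instead by array. It stood at 12.14 and 12.09 in acupoint mice, 8.95 and 12.21 in non-acupoint mice, 8.79 and 12.37 in MPTP mice, and 12.08 and 12.08 in controls. The 2 arrays that stood apart lay at least 3.13 log2 units below the other 6, which spanned 12.08 to 12.37. Among all 15791 tested probe sets, 8 had both of these arrays lower than the other 6 by at least 3 log2 units, and 7 had a larger gap than Mt2, while 29.2% had both arrays lower by any amount. The MPTP difference from control was -1.50 ± 1.34 over all 8 arrays and 0.28 ± 0.08 with the 6 arrays, in the other direction (limma adjusted p = 0.714 and 0.198). No group difference of Mt2 can therefore be read from the 8 arrays.

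The genes nearest to a member in profile were ranked by the root mean square difference of their centred log2 levels over the 8 arrays, among 13523 other genes, for the 3 members of largest SD (Mt2, Fkbp5 and Zbtb16). Nearest to Mt2 were Rny3, a small cytoplasmic Y RNA (0.19 log2 units), Cox7a2, a subunit of cytochrome oxidase (0.21), and n-R5s136, a 5S ribosomal RNA gene (0.22). Rny3 stood at 9.84 in MPTP mouse 1 and 10.25 in non-acupoint mouse 1, against 12.91 to 13.16 on the other 6 arrays. Nearest to Fkbp5 was Ciart, a repressor of the circadian clock (0.12), at 8.73 and 8.39 in acupoint mice, 8.33 and 8.54 in non-acupoint mice, 8.76 and 9.00 in MPTP mice, and 7.98 and 8.19 in controls. Net1 and Tmem81 followed (both 0.16). Nearest to Zbtb16 were B3galt5, a galactosyltransferase, Zgrf1 and Fbxo5 (all 0.16). These profiles share the arrays and their 2 outlying libraries.

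**Figure D2:**
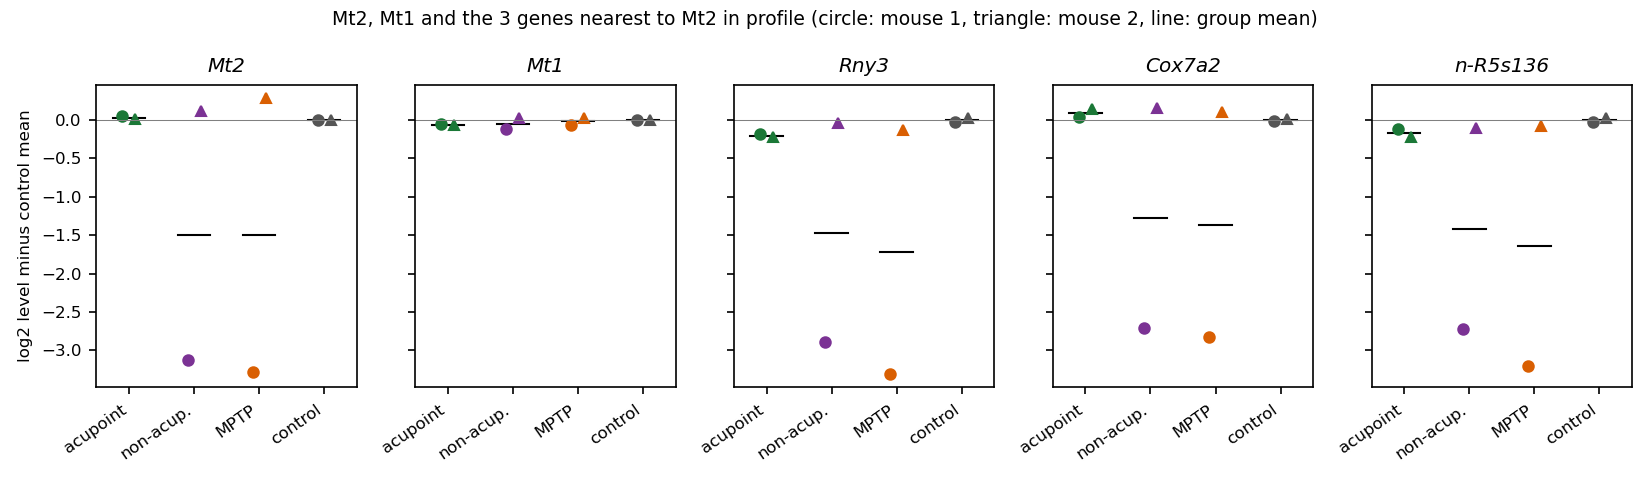
Log2 level minus the control mean for Mt2, Mt1 and the 3 genes nearest to Mt2 in profile, by group (circle mouse 1, triangle mouse 2, line group mean). Mt2, Rny3, Cox7a2 and n-R5s136 are low in mouse 1 of the MPTP and non-acupoint groups, while the log2 level of Mt1 stays between 11.88 and 12.02 on all 8 arrays.

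**Figure D3:**
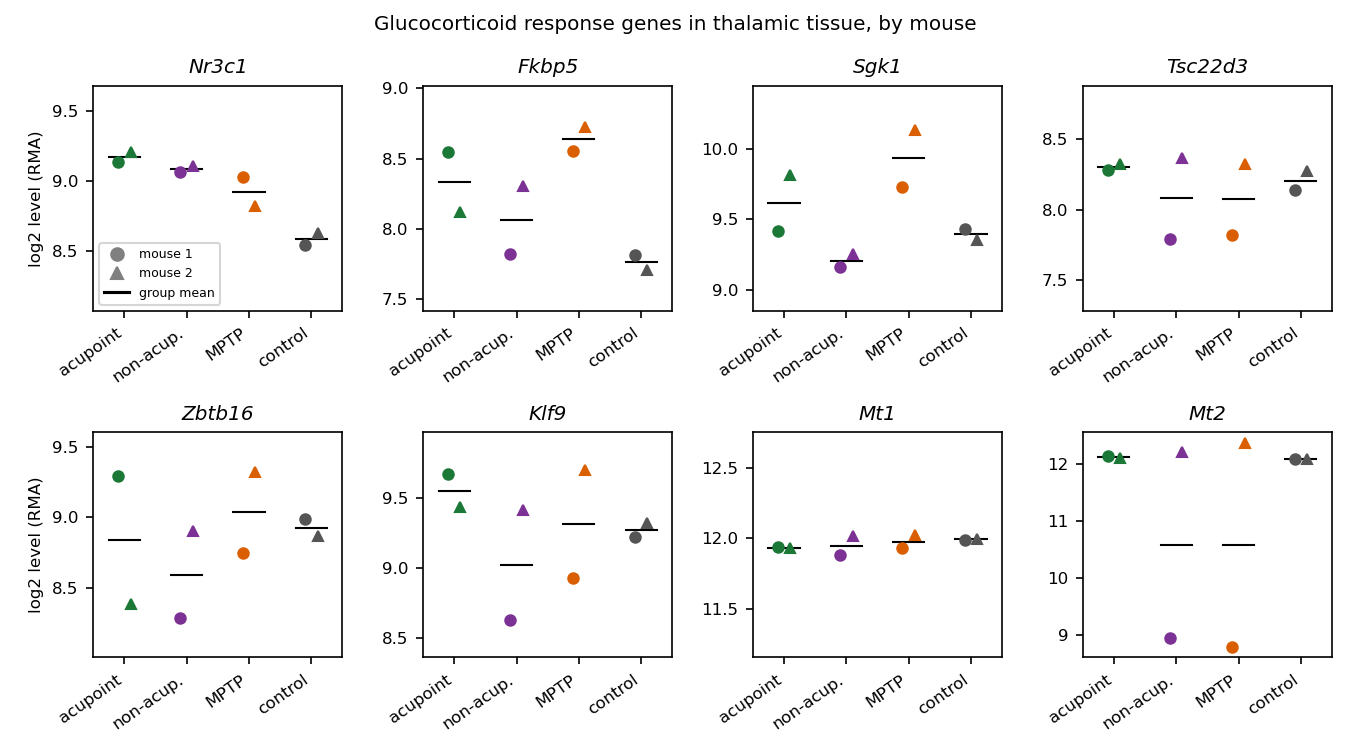
Log2 level of each of the 8 genes in each mouse, by group (circle mouse 1, triangle mouse 2, line group mean; each panel spans 1.6 log2 units except Mt2). Nr3c1 is above control in all 6 injected mice, and Fkbp5 and Sgk1 are highest on average in MPTP mice.

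Counted over the panel, no gene passed the threshold in any of the 5 comparisons over all 8 arrays by limma. In MPTP against control, 3 of 8 genes (Nr3c1, Fkbp5 and Sgk1) had groups that did not overlap, all higher, where 38.5% of all probe sets did not overlap (18.2% higher and 20.4% lower). The same 3 had an unadjusted p under 0.05, as 5.29% of all probe sets had, and 0% passed the adjusted threshold. The median difference of the panel was 0.08, against -0.02 over all probe sets, with 5 of 8 higher. Leaving out the 2 arrays that stood apart leaves MPTP mouse 2 as the only MPTP mouse. In that mouse 8 of 8 were higher than the control mean, with a median of 0.34 (-0.01 over all probe sets).

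In non-acupoint against MPTP, 6 of 8 genes were lower (median -0.16, against 0.01 over all probe sets), and 6 of 8 with the 6 arrays (median -0.22). Sgk1 and Fkbp5 did not overlap and were lower, where 6.74% of all probe sets did so in that direction and 12.4% in either. Nr3c1 did not overlap and was higher (difference 0.16 ± 0.13), where 5.67% did so; the difference was 0.28 ± 0.11 with the 6 arrays and 0.0580 without MPTP mouse 2. Sgk1 and Fkbp5 were also the 2 genes with an unadjusted p under 0.05, as 1.56% of all probe sets had, and 0.0443% passed the adjusted threshold.

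In acupoint against MPTP, 4 of 8 genes were higher and 0 had an unadjusted p under 0.05 (1.37% of all probe sets by limma, and 0% passed the adjusted threshold). On the 6 arrays, against MPTP mouse 2 alone, only Nr3c1 was higher. The panel's median there was -0.20 (0.01 over all probe sets), against 0.09 over 8 arrays. The 6-array values of MPTP against control rest on that same mouse. Fkbp5 did not overlap and was lower, where 12.5% of all probe sets did so, and Nr3c1 did not overlap and was higher (0.25 ± 0.13), where 14.5% did so, 27.1% in all. In acupoint against non-acupoint, 7 of 8 were higher with a median of 0.26 (0.01 over all), but 4 of 8 with a median of -0.0142 on the 6 arrays, without non-acupoint mouse 1. Over 8 arrays Nr3c1, Sgk1 and Klf9 did not overlap, where 31.8% of all probe sets did not overlap (13.8% higher and 18% lower). None had an unadjusted p under 0.05 (1.89% of all probe sets, 0% past the adjusted threshold). In all injected groups against control, Nr3c1 and Fkbp5 did not overlap (19.9% of all probe sets, 10.3% higher and 9.66% lower) and had an unadjusted p under 0.05 (7.07% of all, and 0% past the adjusted threshold). The panel's median there was -0.0083 with 4 of 8 higher, and 0.21 with 7 of 8 higher on the 6 arrays. The comparisons with MPTP mice share those 2 mice, and the comparisons with controls share the 2 controls, so the lower Sgk1 and Fkbp5 after hip needling and their higher level after MPTP use the same MPTP values.

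**Figure D4:**
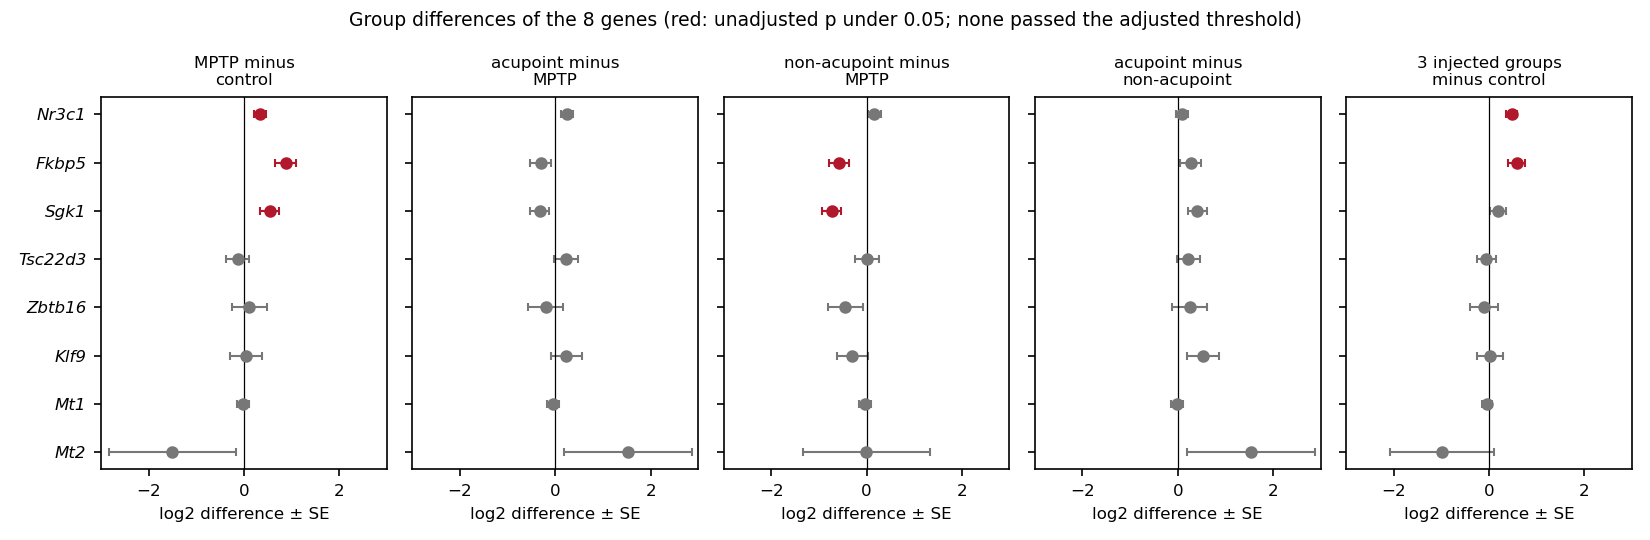
Log2 difference ± SE (limma, 8 arrays) of the 8 genes in the 5 comparisons, each panel titled with its direction. Red marks an unadjusted p under 0.05, seen for Nr3c1, Fkbp5 and Sgk1 in MPTP minus control, Fkbp5 and Sgk1 in non-acupoint minus MPTP, and Nr3c1 and Fkbp5 in the injected groups minus control.

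Of 26 further genes known to be induced by glucocorticoids, 22 were tested and 0 passed the threshold in any comparison, with 8 or with 6 arrays. In MPTP mice 16 of the 22 were higher than in controls (median 0.17; 47.8% of all probe sets were higher), and in non-acupoint mice 5 of the 22 were higher than in MPTP mice (median -0.12; 52.4% of all probe sets were higher). On the 6 arrays these counts were 17 (median 0.11) and 9 (median -0.0683). Per1, a clock gene with a glucocorticoid response element, stood at 8.12 and 8.08 in acupoint mice, 8.26 and 7.91 in non-acupoint mice, 8.82 and 8.17 in MPTP mice, and 7.81 and 7.81 in controls. All 6 injected mice lay above both controls, as they did in 10.3% of all probe sets. MPTP mice exceeded controls in Per1 by 0.69 ± 0.23 (limma adjusted p = 0.714), and by 0.36 ± 0.08 with the 6 arrays, without the high MPTP mouse 1 (limma adjusted p = 0.142).

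Txnip, an inhibitor of thioredoxin, was lowest in non-acupoint mice, at 8.13 and 8.34 in acupoint mice, 7.52 and 7.81 in non-acupoint mice, 8.26 and 8.27 in MPTP mice, and 8.06 and 7.96 in controls. Its non-acupoint difference from MPTP was -0.60 ± 0.16 (limma adjusted p = 1.00). Dusp1, a phosphatase that switches off MAP kinases, ran the other way, at 8.91 and 9.28 in acupoint mice, 9.14 and 9.31 in non-acupoint mice, 8.62 and 8.64 in MPTP mice, and 8.65 and 8.57 in controls. Both needled groups lay above MPTP mice and controls. Acupoint mice exceeded MPTP mice by 0.47 ± 0.16 (limma adjusted p = 0.889), where 14.5% of all probe sets were higher without overlap. Non-acupoint mice exceeded MPTP mice by 0.59 ± 0.16 (limma adjusted p = 1.00), where 5.67% of all probe sets were higher without overlap. The group means of Per1 ran in the order of Fkbp5, those of Txnip in the order of Sgk1 and the choroid plexus markers, and those of Dusp1 in neither order.

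Of 16 genes of the receptor's machinery, its chaperones and cofactors among them, 13 were tested and 0 passed over 8 arrays. Nr3c2, the mineralocorticoid receptor, which binds the same hormone, was high on the arrays that stood apart (8.98 in MPTP mouse 1 and 8.47 in non-acupoint mouse 1) and stood at 7.19 to 7.47 on the other 6. Abcb1a, the efflux pump of the blood-brain barrier that carries glucocorticoids and 1 of the 9 tested endothelial markers, was 8.75 and 8.76 in acupoint mice, 9.21 and 8.95 in non-acupoint mice, 9.20 and 8.43 in MPTP mice, and 8.40 and 8.30 in controls. The injected groups exceeded controls in Abcb1a by 0.53 ± 0.21 (limma adjusted p = 0.669), and by 0.36 ± 0.07 with the 6 arrays. Fkbp4, the co-chaperone that acts opposite to Fkbp5, stood at 9.43 and 9.58 in acupoint mice, 9.20 and 9.61 in non-acupoint mice, 8.79 and 9.44 in MPTP mice, and 9.56 and 9.55 in controls. Its MPTP difference from control was -0.44 ± 0.25, and -0.11 ± 0.10 without MPTP mouse 1 and non-acupoint mouse 1.

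Of 10 genes of the hypothalamic and pituitary stress axis, 7 were tested, 0 passed over 8 arrays, and 6 of the 7 were lower in the injected groups than in controls with no overlap (9.66% of all probe sets were lower in that way; median -0.46). Avp, the vasopressin gene, stood at 6.69 and 6.70 in acupoint mice, 6.90 and 7.26 in non-acupoint mice, 6.34 and 7.13 in MPTP mice, and 8.07 and 7.80 in controls (difference of the injected groups -1.10 ± 0.23, limma adjusted p = 0.298). Ucn, which encodes the peptide urocortin, differed by -0.46 ± 0.12. Without the 2 arrays that stood apart, these differences were -0.91 ± 0.09 for Avp and -0.45 ± 0.06 for Ucn, and 6 of the 7 genes were lower. Avp and Pomc are also among the 10 tested markers of the hypothalamus, a region below the thalamus, all of which were lower in the injected groups (median -1.09, and -0.44 with the 6 arrays). The mean level of those 10 markers ranged from 6.47 to 7.72 in injected mice and from 7.96 to 8.00 in controls, and its part in the stress axis values was not tested.

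Neither of the 2 lists fixed for other inducers of panel genes had a gene past the threshold over 8 arrays. Mtf1, which encodes the factor that binds metal response elements, the zinc exporter gene Slc30a1 and the brain metallothionein gene Mt3 were the 3 tested metal response genes. Their mean log2 level lay between 8.80 and 8.96 on the 8 arrays, which hides opposite moves. In MPTP mouse 1 and non-acupoint mouse 1, Mt3 was 11.36 and 11.43 (10.93 to 11.04 on the other 6) and Mtf1 7.63 and 7.53 (7.21 to 7.36). Slc30a1 was lower there, at 7.88 and 7.79 (8.04 to 8.29 on the other 6). Of 11 targets of p53, which induces Cdkn1a, 7 were tested, with a median difference of -0.05 in MPTP mice from controls, and 0.17 with the 6 arrays. Among them Phlda3 was 7.94 and 7.95 in acupoint mice, 7.24 and 8.48 in non-acupoint mice, 6.95 and 8.59 in MPTP mice, and 8.76 and 8.74 in controls. Its difference of the injected groups from control was -0.41 ± 0.06 with the 6 arrays, where 5 of the 7 targets were higher and 2 lower. Other tissue markers differed less between groups than those of choroid plexus. The mean level of 9 oligodendrocyte markers lay between 10.35 and 10.70 and that of 10 astrocyte markers between 9.66 and 9.89 over the 8 arrays. Endothelial markers (9 tested) lay between 7.83 and 8.32, microglial markers (9 tested) between 7.39 and 7.67, and meningeal markers (9 tested) between 6.68 and 7.61. Striatal markers (7 tested) reached 10.15 in MPTP mouse 1, against 7.88 to 8.95 elsewhere, and markers of cortex and hippocampus (7 tested) 8.17, against 7.37 to 7.76. No blood marker of 6 had a tested probe set.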

How the data were processed

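Thalamic RNA of 8 mice (4 groups of 2, 300 ng a mouse) was labelled and measured on whole-transcript arrays from Affymetrix, as the labels' protocols state. The deposited values are log2 levels made by the authors with Affymetrix Expression Console and RMA, per the submitters' processing notes, which corrects background, normalizes between arrays and summarises probes. Their versions were not given in the sources used here. RMA draws arrays towards a common distribution and compresses dim differences.

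Of 35557 probe sets, 21789 carried 1 gene symbol and 1621 several in the platform annotation. Named probe sets with a mean above the 40th percentile (log2 5.63) were tested, 15791 in all. Group means were fitted to all 8 arrays with limma 3.58.1 in R 4.3.3 (4 residual and 2.53 prior degrees of freedom). The p-values are two-sided, with Benjamini-Hochberg adjustment over all tested probe sets and a threshold of 0.05. An exact permutation test of 2 against 2 mice cannot reach that threshold. The procedure was tested on simulated data with independent noise and no arrays that stood apart. That test therefore cannot speak to the effect of such arrays. Precision is limited by the number of arrays.

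The members, lists, comparisons and alternatives were chosen with earlier results of these data known. All members are named. Of each other list, genes past the threshold or else up to 3 of smallest unadjusted p in a comparison could be named, as could the 3 nearest profiles of the 3 members of largest SD, and up to 2 markers. The median log2 difference of all tested probe sets lay between -0.02 and 0.01 in the 5 comparisons. Mouse numbers were checked for pairing through the correlation of deviations from group means, and alternatives covered normalization, filter, moderation, array weights, the samples fitted, a block on mouse number, 1 probe set per gene, the 6 arrays and leaving out each mouse.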

Additional observations from a re-analysis of the deposited data

How the results depend on the processing

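Of 432 values recomputed under 11 other settings (each of the 5 comparisons and 8 genes where a value could be had), 412 kept their direction and side of the threshold, 2 newly passed and 18 turned direction. Only repeated quantile normalization, cyclic loess and the 6 arrays could change a log2 difference. The remaining settings could move p-values but not direction, the array weights being equal within each group. A kept direction under those settings was therefore fixed in advance and is no sign of stability. The list counts, medians and genes with the 6 arrays were added after the data were seen. The mean of a gene's probe sets was not run, since each gene had 1. Nr3c1 kept a positive difference and Sgk1 and Fkbp5 their direction in every comparison under the settings that could change it. The values that newly passed were those of Nr3c1 and Fkbp5 for the injected groups against control, on the 6 arrays. That fit left the MPTP and non-acupoint groups 1 mouse each. Genes of the receptor machinery, stress axis and p53 lists passed in it too. No member passed in any of the 5 comparisons over 8 arrays or when single mice were left out. With the 6 arrays, MPTP against control became 0.12 for Tsc22d3, 0.0309 for Mt1 and 0.28 for Mt2, and acupoint against MPTP -0.0227 for Tsc22d3, -0.15 for Klf9 and -0.25 for Mt2. Acupoint against non-acupoint became -0.0691 for Tsc22d3, -0.0621 for Zbtb16 and -0.0917 for Mt2, and injected against control 0.13 for Tsc22d3, 0.0963 for Zbtb16 and 0.15 for Mt2. Repeated quantile normalization gave -0.0093 for Tsc22d3 and 0.0342 for Mt2 in non-acupoint against MPTP, 0.0324 for Mt1 in acupoint against non-acupoint, and -0.0164 for Klf9 in injected against control. Cyclic loess gave 0.0335 for Mt1 in MPTP against control and -0.0088 for Tsc22d3 in non-acupoint against MPTP. The cause was not tested.

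Leaving out each mouse in turn (lone mice taken to vary like other groups) turned 34 of 320 values. The log2 difference ran, in MPTP against control, from -0.34 to 0.43 for Klf9, -0.0636 to 0.0309 for Mt1, -3.29 to 0.28 for Mt2, -0.38 to 0.12 for Tsc22d3 and -0.18 to 0.40 for Zbtb16. In acupoint against MPTP, it ran from -0.15 to 0.62 for Klf9, -0.0897 to 0.0048 for Mt1, -0.25 to 3.32 for Mt2, -0.0227 to 0.48 for Tsc22d3 and -0.65 to 0.26 for Zbtb16. In non-acupoint against MPTP, it ran from -0.69 to 0.0962 for Klf9, -0.0949 to 0.0385 for Mt1, -1.79 to 1.78 for Mt2 and -0.28 to 0.30 for Tsc22d3. In acupoint against non-acupoint, it ran from -0.0810 to 0.0524 for Mt1, -0.0917 to 3.16 for Mt2, -0.0691 to 0.51 for Tsc22d3 and -0.21 to 0.70 for Zbtb16. For the 3 injected groups combined, against control, it ran from -0.11 to 0.15 for Klf9, -0.15 to 0.0421 for Tsc22d3 and -0.25 to 0.0488 for Zbtb16. Nr3c1 kept its direction, at 0.24 to 0.44 in MPTP against control, 0.15 to 0.35 in acupoint against MPTP, 0.0580 to 0.26 in non-acupoint against MPTP and 0.0514 to 0.12 in acupoint against non-acupoint. Fkbp5 kept its direction, at 0.79 to 0.97 in MPTP against control, -0.52 to -0.0908 in acupoint against MPTP, -0.82 to -0.34 in non-acupoint against MPTP and 0.0337 to 0.51 in acupoint against non-acupoint. Sgk1 kept its direction, at 0.34 to 0.75 in MPTP against control, -0.52 to -0.12 in acupoint against MPTP, -0.93 to -0.53 in non-acupoint against MPTP and 0.21 to 0.61 in acupoint against non-acupoint.

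Mouse numbers did not pair the samples: the mouse 1 deviations correlated at -0.282 to 0.822 between groups, and the highest value is that of the 2 arrays that stood apart. Whether those 2 share a batch is not given by the labels. With the replicate block, 0 members passed in each comparison, no other call of a member moved, and 1089 probe sets had an unadjusted p under 0.05 in MPTP against control. The number of mice, 2 per group, limits the precision.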
